A study of Homo sapiens with 12 samples.

Results

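Pump genes of 2 ion gradients were followed in HepG2 cells, an established human liver cancer line: the 3 beta subunits of the sodium pump ATP1B1, ATP1B2 and ATP1B3, and 5 calcium pumps, ATP2A2, ATP2A3, ATP2B1, ATP2B4 and ATP2C1. They were chosen by symbol from a named list and by a measured value, their presence in the deposited count table, and all 8 were there among 16389 genes. That table held no gene with a mean count below 10 over the 12 libraries, and the lowest of the 8 was ATP2A3, with a mean of 48.2 reads. The list left out other pump genes that the table also held, and ATP2A1, ATP2B2 and ATP2C2 are given where a comparison turns on them. It was drawn up with earlier results of these data known.

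The study asked how a high glucose medium changes transcription in liver cells and whether valproic acid (VPA), a short fatty acid that inhibits histone deacetylases and is prescribed against seizures, alters that response. All libraries came from HepG2 cells of unmodified genotype as far as the labels say. Low glucose (LG) cells were kept for 48 h with 5.5 mM glucose and high glucose (HG) cells for 48 h with 20 mM glucose. LGV and HGV cells had the same media and then 1 mM VPA for a further 12 h. Each group had 3 libraries. The sources used here do not say whether LG and HG cells were also kept for the further 12 h, and if they were not, VPA and the added time cannot be told apart. The labels do not say that the replicates were separate cultures, so p-values measure only the spread between these libraries.

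The sodium pump spends ATP to move sodium out of the cell and potassium in. Its alpha subunit does the transport, and its beta subunit is a glycoprotein that the alpha subunit needs to fold and to reach the plasma membrane. Calcium pumps keep cytosolic calcium low: the SERCA pumps return it to the endoplasmic reticulum (ER), the PMCA pumps push it out across the plasma membrane, and the SPCA pump loads the Golgi with calcium and manganese. In liver cells the ER store feeds calcium signals and bathes the calcium-binding chaperones that fold secreted proteins.

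The libraries held 29798442 to 45572694 assigned reads. All 9 hepatocyte markers were in the table, with a summed level of 40050 to 61620 CPM (a gene's reads relative to all reads of the library, scaled with TMM factors). This sum was lowest in LGV, at 40050 to 40975 CPM, and it was 52004 to 58704 CPM in LG. Of 8 markers of leukocytes, endothelium, fibroblasts and muscle, 4 were in the table, CD14, VWF, COL1A1 and ACTA1, and PTPRC, PECAM1, COL3A1 and MYH7 were not listed. Their sum was 10.7 to 16.2 CPM in the 12 libraries. The fibroblast gene COL1A1 rose with VPA, from 0.226 ± 0.131 CPM in LG to 1.09 ± 0.35 in LGV and from 0.339 ± 0.072 in HG to 1.97 ± 0.70 in HGV (SD, n = 3). In LGV against LG it passed the filter on low counts through its LGV libraries alone, with 5 to 10 reads a library in LG. Its HG libraries held 10 to 14 reads. The monocyte gene CD14 went from 1.86 ± 0.65 CPM in LG to 4.43 ± 0.49 in HG, a rise of 1.28 ± 0.26 on the log2 scale (FDR = 0.00160), and fell with VPA in high glucose by 0.56 ± 0.18 (FDR = 0.0218). The muscle gene ACTA1 went from 9.63 ± 1.18 CPM in LG to 3.89 ± 0.67 in HG and fell by 1.28 ± 0.19 (FDR = 0.000140). Of the 9 hepatocyte markers, 2 were called in HG against LG and 4 in HGV against LGV, all higher, 6 in LGV against LG, all lower, and 3 in HGV against HG, 1 higher and 2 lower. Over all genes tested, 24.7%, 40.7%, 41.6% and 46.1% were called in these comparisons, in the same order. The part of these markers in the results was not tested. In bulk libraries, fewer cells with a transcript and less of it per cell cannot be told apart.

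The genes lie on separate chromosomes or far apart in GRCh37. ATP1B1 is at 1:169074935-169280230 on the plus strand, ATP1B2 at 17:7549945-7561088 on the plus strand and ATP1B3 at 3:141594966-141645391 on the plus strand. ATP2A2 is at 12:110718561-110788898 on the plus strand and ATP2A3 at 17:3827164-3867758 on the minus strand. ATP2B1 is at 12:89981826-90103143 on the minus strand, ATP2B4 at 1:203595960-203713209 on the plus strand and ATP2C1 at 3:130569439-130735556 on the plus strand. All are protein-coding. Exons of ATP1B1, ATP2B1 and ATP2C1 overlap an opposite-strand gene of the table (NME7, ATP2B1-AS1 and ASTE1) over 2.34%, 1.55% and 2.21% of their exon length. The kit marks strand, but the strand setting of the counting was not given in the sources used here, so reads in those stretches may belong to the partner.

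The upstream sequences of ATP1B2 and ATP1B3 are shown because these sister subunits stood at very different levels: ATP1B2 was scarce and rose with VPA, and ATP1B3 was abundant and fell in high glucose. Each is the 250 bases before the gene start of the RefSeq promoter table (GRCh38.p14), found at a unique place in GRCh37, on the plus strand, at chr17:7549695-7549944 and chr3:141595235-141595484. The first holds no annotated exon base and the second 29. Capitals mark CpG dinucleotides, the usual target of DNA methylation.
ATP1B2: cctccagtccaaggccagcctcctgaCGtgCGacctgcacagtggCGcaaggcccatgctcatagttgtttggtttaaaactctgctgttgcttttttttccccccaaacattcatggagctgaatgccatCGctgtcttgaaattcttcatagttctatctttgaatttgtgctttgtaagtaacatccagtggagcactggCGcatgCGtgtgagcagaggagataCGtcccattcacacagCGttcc
ATP1B3: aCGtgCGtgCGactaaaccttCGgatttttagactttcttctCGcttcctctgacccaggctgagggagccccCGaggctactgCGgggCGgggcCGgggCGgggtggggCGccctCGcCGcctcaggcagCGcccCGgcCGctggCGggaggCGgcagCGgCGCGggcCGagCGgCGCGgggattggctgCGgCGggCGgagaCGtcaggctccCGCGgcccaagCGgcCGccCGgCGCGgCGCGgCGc

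The ATP1B2 window held 8 CpGs at 49.2% GC and the ATP1B3 window 39 CpGs at 77.2% GC, beside medians of 11 CpGs and 58% GC over all 27305 promoters. Among the other members with an entry, ATP1B1 (35 CpGs) and ATP2B1 (38 CpGs) were CpG-rich like ATP1B3, and ATP2A2 (9), ATP2B4 (8) and ATP2C1 (2) were not. ATP2A3 had no entry. All 250 bases of the ATP1B1 window are exon bases of ATP1B1 itself, and all 250 of the ATP2B1 window are exon bases of ATP2B1-AS1. The windows of ATP1B1 and ATP1B3 lie past the gene starts given above. The 250 bases of ATP2A2 lie at chr12:110718171-110718420, short of the gene start at 110718561 given above. Of these, 150 are exon bases of another gene. The promoters of 7 members were searched on both strands, over 250 bases before and 50 after the RefSeq start. For ATP1B1, ATP1B3 and ATP2A2 this did not reach the sequence next to the gene starts given above. The ER stress elements ERSE and ERSE-II and the amino acid response element TGATGNAA were in none of the 7, and in 0.0806%, 0.0549% and 3.67% of all promoters. CACGTG was in that of ATP2B1 (7.43% of all) and TATAAA in none (12.0% of all). CCAAT, which ERSE contains, was in those of ATP1B1 and ATP1B3 (35.7% of all). GGGCGG was in those of ATP1B1, ATP1B3, ATP2B1 and ATP2B4 (44.6% of all). These matches are letters in a window and say nothing of binding.

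Levels differed widely between the genes. Per kilobase of exon, the mean level in LG was 75.0 ± 19.8 CPM per kb for ATP1B3, 56.1 ± 6.17 for ATP2A2 and 30.5 ± 4.15 for ATP1B1 (SD, n = 3). ATP2B1, ATP2C1 and ATP2B4 stood lower, at 8.09 ± 0.73, 7.27 ± 0.47 and 2.71 ± 0.51 CPM per kb. ATP1B2, at 0.292 ± 0.112, and ATP2A3, at 0.00855 ± 0.00767 CPM per kb, stood lowest. With the longest transcript as the length, ATP2C1 (12.4 CPM per kb) stood above ATP2B1 (10.7 CPM per kb). In CPM not divided by length, ATP2A2 (772 CPM in LG) and ATP1B1 (375 CPM) stood above ATP1B3 (196 CPM).

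**Figure D1:**
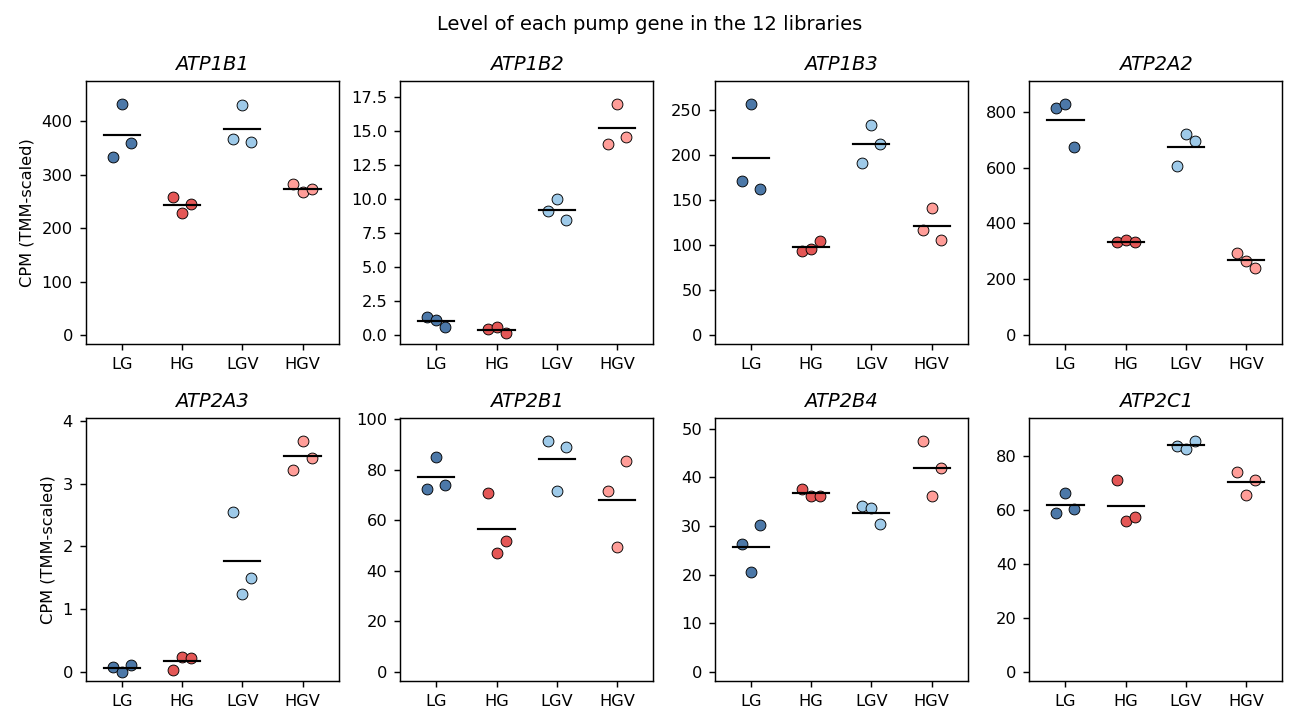
CPM scaled with TMM factors (vertical axis, linear, a separate scale for each gene) of the 8 pump genes in the 12 libraries, grouped as LG, HG, LGV and HGV. Each point is a library and each line the mean of 3. ATP2A2 separated by glucose (242 to 340 CPM against 606 to 828 CPM), and ATP1B2 and ATP2A3 by VPA.

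ATP1B1, the most widely used beta subunit, was lower in high glucose with and without VPA. It read 334, 432 and 358 CPM in the LG libraries, 258, 229 and 245 in HG, 367, 431 and 360 in LGV and 283, 267 and 272 in HGV. All 3 HG libraries lay below all 3 LG libraries, and all 3 HGV libraries below all 3 LGV libraries. ATP1B1 fell by 0.60 ± 0.13 on the log2 scale in HG against LG (SE, false discovery rate (FDR) = 0.00227) and fell by 0.51 ± 0.13 in HGV against LGV (FDR = 0.00347). With VPA the log2 differences were 0.05 ± 0.13 in low glucose (FDR = 0.778) and 0.17 ± 0.10 in high glucose (FDR = 0.185). FDRs are from edgeR's quasi-likelihood F test, adjusted by Benjamini-Hochberg over every gene with a mean count of at least 10 in the libraries compared, and a gene was called at an FDR of 0.05 or less.

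ATP1B3, the third beta isoform, followed the same order of groups, LGV, LG, HGV, HG from high to low. Its levels were 171, 256 and 162 CPM in LG, 93.5, 95.6 and 105 in HG, 191, 233 and 212 in LGV and 116, 141 and 105 in HGV. LG and LGV overlapped, and every other neighbour in that order was apart, though HGV stood above HG by less than 1 CPM at its nearest libraries (105.2 against 104.6 CPM). ATP1B3 fell by 0.98 ± 0.15 on the log2 scale in HG against LG (FDR = 0.000179) and fell by 0.83 ± 0.13 in HGV against LGV (FDR = 0.000118). LG replicate 2, at 256 CPM, was the highest library, and without it the log2 fold change in HG against LG was -0.72 (FDR = 0.000637). The VPA differences were 0.12 ± 0.16 in low glucose (FDR = 0.580) and 0.30 ± 0.12 in high glucose (FDR = 0.0540). The first was called without LG replicate 2 (FDR = 0.041). The second was called without HGV replicate 3 (FDR = 0.024), by the likelihood ratio test (0.0457), with upper quartile factors (0.0279), with library size only (0.00787) and with a filter of 1 CPM in 3 libraries (0.0444).

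ATP1B2, the beta isoform best known from glia, where it is also an adhesion molecule, was the sister that VPA raised. Its reads numbered 36, 44 and 23 in LG, 14, 19 and 6 in HG, 305, 308 and 317 in LGV and 457, 714 and 496 in HGV. In CPM these were 1.35, 1.10 and 0.587 in LG, 0.444, 0.568 and 0.168 in HG, 9.15, 10.0 and 8.46 in LGV and 14.0, 17.0 and 14.6 in HGV. The 4 groups did not overlap, in the order HGV, LGV, LG, HG from high to low, and LG and HG were nearest, at 0.587 and 0.568 CPM. With library size only, LG and HG overlapped, at 0.564 CPM in LG replicate 3 and 0.572 in HG replicate 2. ATP1B2 rose by 3.22 ± 0.26 on the log2 scale in LGV against LG (FDR = 3.82e-07) and by 5.28 ± 0.27 in HGV against HG (FDR = 3.50e-08). The ratio of pooled CPM was 9.42 (95% interval 7.68 to 11.7) in low glucose and 39.6 (28.8 to 55.9) in high glucose. These exact intervals cover counting error only.

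Glucose moved ATP1B2 in opposite directions without and with VPA. It fell by 1.32 ± 0.41 on the log2 scale in HG against LG (FDR = 0.0254) and rose by 0.71 ± 0.15 in HGV against LGV (FDR = 0.00107). The fall rested on 103 reads in LG and 39 in HG, and it was not called without LG replicate 1 (FDR = 0.145), LG replicate 2 (0.083), HG replicate 1 (0.077) or HG replicate 3 (0.155), nor when libraries were scaled by library size only (FDR = 0.0504). The rise was called without each library in turn, at FDRs of 0.00215 to 0.0118. The test of the difference itself, the interaction of glucose and VPA over all 12 libraries, gave 2.06 ± 0.41 on the log2 scale with an FDR of 0.0627, which missed the threshold. It was past the threshold by edgeR's likelihood ratio test (FDR = 0.000159) and by DESeq2 (FDR = 0.000354).

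Within the beta subunits, the share of ATP1B2 in the summed CPM per kb went from 0.281 ± 0.123% in LG and 0.201 ± 0.110% in HG to 2.31 ± 0.17% in LGV and 6.03 ± 0.33% in HGV (SD, n = 3). ATP1B3 held the largest share in all 4 groups, 70.5 ± 2.76%, 65.2 ± 2.03%, 70.4 ± 1.37% and 63.2 ± 3.39% in LG, HG, LGV and HGV. ATP1B1 held 29.2 ± 2.78%, 34.6 ± 1.99%, 27.3 ± 1.21% and 30.8 ± 3.38%. In CPM not divided by length, ATP1B1 stood above ATP1B3 in all 4 groups, at 375 against 196 CPM in LG. Their order per kb thus turns on the exon lengths used, 12290 bases for ATP1B1 and 2617 for ATP1B3. With the longest transcript as length, ATP1B3 stayed first, at 62.7% in LG. So ATP1B2 stayed a minor beta transcript where it was highest.

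**Figure D2:**
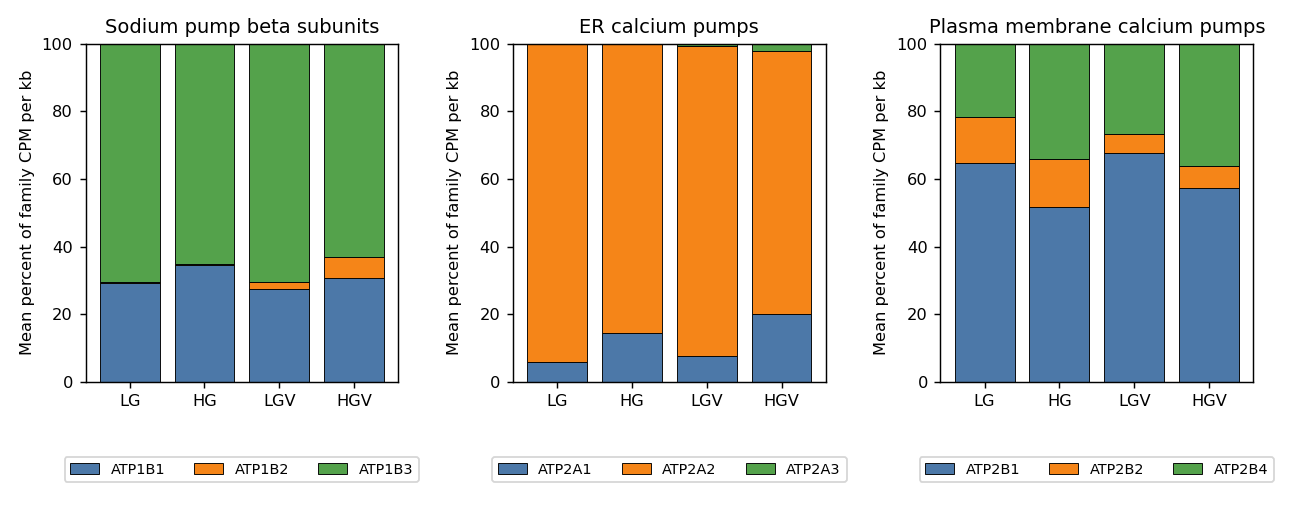
Mean share (percent, n = 3) of each gene in the summed CPM per kb of exon of its family, for the beta subunits, the ER calcium pumps and the plasma membrane calcium pumps in LG, HG, LGV and HGV. ATP2A2 made up 94.1% of the ER pump sum in LG and 77.9% in HGV, and ATP1B2 made up 6.03% of the beta sum in HGV.

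ATP2A2 encodes SERCA2, the ER calcium pump that nearly every cell uses, and it had the most reads of the 8 genes. It read 813, 828 and 674 CPM in LG, 333, 340 and 333 in HG, 606, 722 and 694 in LGV and 295, 266 and 242 in HGV. The 6 high glucose libraries all lay below the 6 low glucose libraries, and the HG libraries stood between 333 and 340 CPM. ATP2A2 fell by 1.18 ± 0.12 on the log2 scale in HG against LG (FDR = 2.31e-06) and fell by 1.35 ± 0.14 in HGV against LGV (FDR = 1.11e-06). These values put it 259th from the lowest of 15452 genes and 250th from the lowest of 16208 genes. Both comparisons were called without each library in turn, with a highest FDR of 0.000464.

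With VPA, ATP2A2 moved little. It fell by 0.33 ± 0.10 on the log2 scale in HGV against HG (FDR = 0.0217), where the groups did not overlap, and the difference in LGV against LG was -0.18 ± 0.13 (FDR = 0.291). The fall in high glucose was not called without HG replicate 2 (FDR = 0.071), HG replicate 3 (0.072) or HGV replicate 3 (0.088). It was not called either with scaling by library size only, where the log2 fold change was -0.20 (FDR = 0.120), or with upper quartile factors, where it was -0.27 (FDR = 0.0651). The interaction was -0.13 on the log2 scale.

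ATP2A3 encodes SERCA3, an ER calcium pump of lower calcium affinity known from blood cells and some epithelia, and it had few or no reads without VPA. Its reads numbered 2, 0 and 4 in LG, 1, 8 and 8 in HG, 85, 38 and 56 in LGV and 105, 155 and 116 in HGV. In CPM the VPA libraries read 2.55, 1.23 and 1.49 in LGV and 3.22, 3.69 and 3.41 in HGV, while 3 reads corresponded to 0.0713 to 0.112 CPM. Every HGV library stood above every LGV library, and every LGV library above every library without VPA. The ratio of pooled CPM was 31.1 (95% interval 14.0 to 85.9) in LGV against LG and 20.5 (12.6 to 35.6) in HGV against HG. ATP2A3 rose in both by edgeR, with log2 fold changes of 4.88 ± 0.57 (FDR = 1.00e-05) and 4.33 ± 0.36 (FDR = 1.20e-06). It passed the filter on low counts there through its VPA libraries alone, so that it had to differ once it was tested.

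ATP2A3 also rose in HGV against LGV, where both groups had reads, by 0.95 ± 0.26 on the log2 scale (FDR = 0.00710), and this was called without each library in turn with a highest FDR of 0.0424. In HG against LG it had too few reads to be tested. The 17 reads in HG and 6 in LG gave a ratio of 2.98 with a counting interval of 1.12 to 9.24, and the libraries of the groups overlapped. In the sum of CPM per kb of the ER pumps its share was 0.0153 ± 0.0143% in LG, 0.0836 ± 0.0584% in HG, 0.493 ± 0.244% in LGV and 2.01 ± 0.28% in HGV. Over the same groups ATP2A2 held 94.1 ± 0.74%, 85.5 ± 0.19%, 92.0 ± 1.39% and 77.9 ± 3.66%. The remainder was ATP2A1, the SERCA pump of fast muscle. It held 5.89 ± 0.74% in LG and 20.1 ± 3.72% in HGV while its own level passed the test in none of the 4 comparisons, with FDRs of 0.128 to 0.416.

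ATP2B1 encodes PMCA1, the plasma membrane calcium pump present in nearly all cells. Its levels were 72.2, 85.0 and 74.0 CPM in LG, 70.8, 47.0 and 51.9 in HG, 91.5, 71.7 and 89.1 in LGV and 71.8, 49.3 and 83.5 in HGV. HG lay just below LG (70.8 against 72.2 CPM at the nearest libraries), and every other pair of neighbouring groups overlapped. With library size only, HG and LG overlapped too, at 70.1 CPM in HG replicate 1 and 64.8 in LG replicate 1. ATP2B1 fell by 0.43 ± 0.14 on the log2 scale in HG against LG (FDR = 0.0351). The call was lost without LG replicate 1 (FDR = 0.096), LG replicate 2 (0.161), HG replicate 2 (0.177) or HG replicate 3 (0.217), with scaling by library size only (0.117) or by upper quartile factors (0.0966), with no filter on low counts (0.0574) and in a fit of all 12 libraries (0.0740).

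The other differences of ATP2B1 were not called. They were 0.14 ± 0.13 in LGV against LG (FDR = 0.419), 0.27 ± 0.19 in HGV against HG (FDR = 0.270) and -0.32 ± 0.16 in HGV against LGV (FDR = 0.117). The spread within HGV, 49.3 to 83.5 CPM, was the widest of its groups. Without HGV replicate 2 the difference in HGV against HG was called (FDR = 0.020), and without HGV replicate 3 that in HGV against LGV was (FDR = 0.025).

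ATP2B4, which encodes PMCA4, was higher in high glucose with and without VPA. It read 26.3, 20.6 and 30.3 CPM in LG, 37.7, 36.2 and 36.3 in HG, 34.2, 33.6 and 30.5 in LGV and 47.5, 36.1 and 41.9 in HGV. All HG libraries were above all LG libraries, and all HGV libraries above all LGV libraries. ATP2B4 rose by 0.54 ± 0.15 on the log2 scale in HG against LG (FDR = 0.0147), with an FDR of 0.051 without LG replicate 1. It rose by 0.33 ± 0.13 in HGV against LGV (FDR = 0.0447). That call was lost without LGV replicate 2 (FDR = 0.090), LGV replicate 3 (0.194), HGV replicate 1 (0.211) or HGV replicate 3 (0.087), with DESeq2's size factors (0.0536) and by DESeq2's own test (0.0538).

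With VPA, ATP2B4 differed by 0.36 ± 0.15 on the log2 scale in low glucose (FDR = 0.0656) and by 0.19 ± 0.12 in high glucose (FDR = 0.220). The first was called without LG replicate 3 (FDR = 0.011), with library size only (0.0300) and with upper quartile factors (0.0314). It was also called with a replicate block (0.0403) and in a fit of all 12 libraries (0.0465). The second was called without HGV replicate 2 (0.044). In the sum of the plasma membrane pumps per kb, ATP2B4 held 21.6 ± 3.94% in LG and 34.2 ± 3.03% in HG, 26.7 ± 3.07% in LGV and 36.1 ± 4.39% in HGV. ATP2B1 held 64.7 ± 6.23%, 51.8 ± 5.30%, 67.8 ± 3.33% and 57.4 ± 4.13% in the same order. The rest was ATP2B2, a PMCA isoform of neurons and hair cells.

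ATP2C1 encodes SPCA1, the calcium and manganese pump of the Golgi. It read 58.8, 66.3 and 60.4 CPM in LG, 71.2, 56.1 and 57.6 in HG, 84.0, 82.7 and 85.8 in LGV and 74.1, 65.6 and 71.1 in HGV. The LGV libraries stood above all 9 others. With library size only, LGV and HGV overlapped, at 80.2 CPM in LGV replicate 2 and 81.1 in HGV replicate 1. ATP2C1 rose by 0.46 ± 0.11 on the log2 scale in LGV against LG (FDR = 0.00402), called without each library in turn with a highest FDR of 0.0214. In HGV against HG the difference was 0.19 ± 0.12 (FDR = 0.208), and 0.31 (FDR = 0.0494) with library size only. In HG against LG it was 0.02 ± 0.13 (FDR = 0.945), and in HGV against LGV -0.28 ± 0.11 (FDR = 0.0586), called by DESeq2 (FDR = 0.0330). Its sister ATP2C2, with 6 to 35 reads a library, made up 0.412 ± 0.140% of the Golgi pump sum in LG and 1.51 ± 0.17% in HGV.

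**Figure D3:**
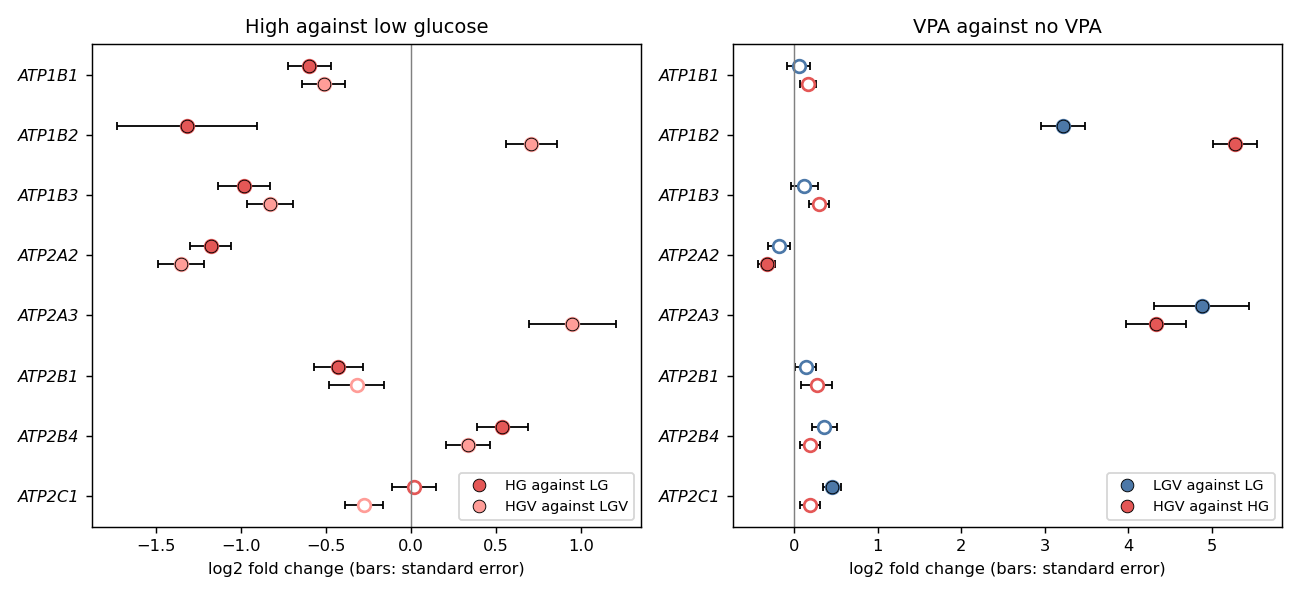
Log2 fold change of each pump gene (horizontal axis, bars are standard errors) for high against low glucose without and with VPA, left, and for VPA against no VPA in low and high glucose, right. Filled points had an FDR of 0.05 or less, and ATP2A3 was not tested in HG against LG. With VPA, ATP1B2 and ATP2A3 stand between 3.22 and 5.28, and the other 6 genes between -0.33 and 0.46.

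Set side by side, most of the pump genes listed here differed with glucose, mostly downward without VPA. The largest values with VPA were those of ATP1B2 and ATP2A3. The members were listed with earlier results of these data known, so counts of members called describe the list and test nothing about pumps as a set. In HG against LG, 6 of the 7 members tested were called, 5 lower and 1 higher, where 24.7% of the 15452 genes tested were called, 12.7% lower and 12.0% higher. Without LG replicate 1 the count fell to 3, all lower (ATP1B1, ATP1B3 and ATP2A2), and it was 3 to 6 over the 6 libraries left out in turn. The libraries of 6 of the 8 members did not overlap, against 41.2% of all genes tested, and those of ATP2A3, which was not tested, overlapped. With library size only, ATP1B2 and ATP2B1 overlapped as well. The median log2 fold change was -0.60 over the 7 members and 0.01 over all genes. In HGV against LGV, which shares no library with the first comparison, 6 of 8 were called, 3 lower and 3 higher, where 40.7% of 16208 genes were called, 19.5% lower and 21.2% higher. Of the members, 7 did not overlap there, against 51.4% of all genes, and the median was -0.30 against 0.01. ATP2C1, among the 7, overlapped with library size only. The 3 lower genes, ATP1B1, ATP1B3 and ATP2A2, were also lower without VPA.

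In LGV against LG, 3 of 8 members were called, all higher (ATP1B2, ATP2A3 and ATP2C1), or 2 of 7 without ATP2A3, which passed the filter through its VPA libraries alone, where 41.6% of 15944 genes were called, 21.7% higher and 19.9% lower. Of the members, 4 did not overlap, against 50.5% of all genes, and the median was 0.25 against -0.01. ATP2A3 is in this count and this median, where the filter fixed its direction. In HGV against HG, 3 of 8 were called, ATP1B2 and ATP2A3 higher and ATP2A2 lower, or 2 of 7 without ATP2A3, where 46.1% of 16188 genes were called, 25.8% higher and 20.2% lower. Without HGV replicate 2 the count rose to 5, with ATP2B1 and ATP2B4 added. Of the members, 5 did not overlap, against 54.6% of all genes, and the median was 0.23 against 0.02. ATP2A3 is again in the count and the median, with its direction fixed by the filter. The VPA comparisons share their LG and HG libraries with HG against LG, and their LGV and HGV libraries with HGV against LGV.

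The scaling of the libraries bears on these counts. With library size only, the median log2 fold change of all genes was 0.11 in HG against LG, 0.16 in LGV against LG, 0.15 in HGV against HG and 0.10 in HGV against LGV. The genes called were then 2172 higher and 1297 lower in HG against LG, in place of 1854 and 1959, and 4500 higher and 1956 lower in LGV against LG, in place of 3461 and 3177. They were 5182 and 2424 in HGV against HG, in place of 4184 and 3272, and 3761 and 2309 in HGV against LGV, in place of 3444 and 3160. Under this scaling 4 members were called in HG against LG, ATP1B2 and ATP2B1 being lost, and 5 members were called in HGV against HG, all higher: ATP1B1 (log2 fold change 0.29), ATP1B3 (0.42) and ATP2C1 (0.31) were added to ATP1B2 and ATP2A3, and ATP2A2 was lost.

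**Figure D4:**
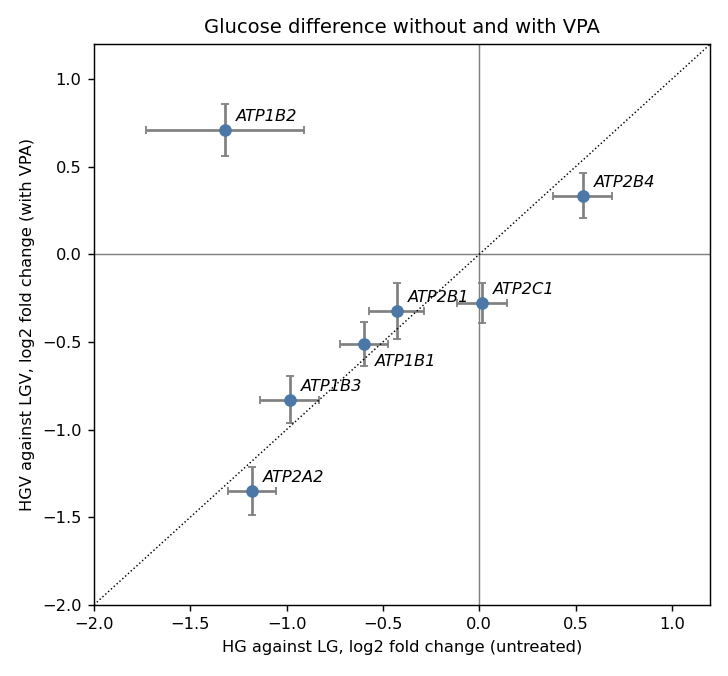
Log2 fold change of high against low glucose without VPA (horizontal axis) and with VPA (vertical axis) for the 7 pump genes tested in both, with standard errors. The dotted line marks equal values. ATP1B2 alone lies in the upper left, at -1.32 and 0.71, and ATP2A2 lies lowest, at -1.18 and -1.35.

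The interaction tested whether the glucose difference changed with VPA. None of the 8 members was called by edgeR's quasi-likelihood F test, and 1, ATP1B2, had an unadjusted p under 0.05, where 7 of 16389 genes were (0.0427%, with 0.0244% positive and 0.0183% negative), and 1852 genes had an unadjusted p under 0.05. DESeq2 called 162 genes and the likelihood ratio test 202, ATP1B2 among them in both. For the other 7 members the interaction lay between -0.54 for ATP2A3 and 0.19 for ATP1B3 on the log2 scale, with FDRs of 0.580 to 0.885. A miss here does not show that glucose acted alike without and with VPA.

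Across the 12 libraries, some members kept step. Pearson's r of log2 CPM was 0.953 between ATP1B1 and ATP1B3, 0.863 between ATP1B1 and ATP2A2, 0.855 between ATP1B3 and ATP2A2 and 0.873 between ATP1B2 and ATP2A3, and it was -0.813 between ATP2A2 and ATP2B4. These describe 12 points that fall into 4 groups and share library depth and scaling. Among 11954 genes, those most like ATP2A2 were HYOU1 (r = 0.989), CANX (0.987) and SPATS2L (0.987). Those most like ATP1B1 were SLC30A7 (0.982), GSPT1 (0.975) and ETF1 (0.972), and those most like ATP1B3 were SEP15 (0.984), UBE2G1 (0.983) and MANSC1 (0.980). CLDN6 (0.990), RAB6B (0.989) and NXPH4 (0.987) were most like ATP1B2. CORO1A (0.988), IFI27L1 (0.985) and GAS2L1 (0.983) were most like ATP2A3. For ATP2B1 they were USP15 (0.977), USP9X (0.967) and ZHX1 (0.963), for ATP2B4 ZNF891 (0.962), HABP4 (0.962) and FAM84B (0.948), and for ATP2C1 SNAPC1 (0.968), RFX3 (0.958) and ZBTB18 (0.957).

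Of the other genes listed with the sodium pump, FXYD5 and ATP4A rose with VPA in both media. FXYD5, which modulates the pump and cell adhesion, rose by 3.48 ± 0.40 on the log2 scale in LGV against LG and by 3.35 ± 0.45 in HGV against HG. ATP4A, the alpha subunit of the gastric proton pump, rose by 1.76 ± 0.48 and 2.33 ± 0.35, at levels of 0.160 ± 0.091 CPM in LG and 1.28 ± 0.21 CPM in HGV. Both had too few reads to be tested in HG against LG and passed the filter on low counts through their VPA libraries alone, so that they had to differ once they were tested with VPA. In HGV against LGV, ATP4A rose by 1.19 ± 0.32 (FDR = 0.00694), and FXYD5 differed by -0.01 ± 0.26 (FDR = 0.983). FXYD2, a further regulator, passed the test in none of the 4 comparisons, with FDRs of 0.131 to 0.796.

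Among the other calcium pumps and their regulators, VPA moved genes in both directions. Of 10 listed, 6 were in the table, and in HG against LG their FDRs were 0.0714 to 0.996, with a median log2 fold change of 0.12. With VPA, 2 were higher and 2 lower in low glucose, and 1 higher and 2 lower in high glucose. Over all genes, 41.6% were called in the first and 46.1% in the second. ATP2B2 fell, with log2 fold changes of -1.26 ± 0.18 and -0.98 ± 0.17, as did HAX1, a protein that binds SERCA2 and its inhibitor phospholamban, with -0.51 ± 0.11 and -0.52 ± 0.12. ATP2C2 rose by 1.60 ± 0.47 and 1.25 ± 0.36. In LG it had 6 to 11 reads a library. It passed the filter in LGV against LG through its LGV libraries alone, so that it could only come out higher there. Phospholamban itself (PLN) was not listed in the table. In HGV against LGV 2 of 6 were called, C4orf3 higher and TMEM165 lower, beside 40.7% of all genes.

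Genes of calcium release, entry and exchange were mostly higher with VPA where they were called. Of 22 listed symbols, which include older and newer symbols of the same genes, 17 were in the table. In LGV against LG 8 were higher and 3 lower, and in HGV against HG 11 were higher and 2 lower of 17, with medians of 0.32 and 0.46. Over all genes, 21.7% were called higher and 19.9% lower in the first, and 25.8% and 20.2% in the second. The higher genes include SLC8A2 in both and SLC8A3 in high glucose (FDR = 0.0431, 6 to 9 reads a library in HG). These calls came from genes that passed the filter through their VPA libraries alone and could only come out higher. ITPR1, an ER calcium release channel, rose by 0.63 ± 0.15 and 1.18 ± 0.14 on the log2 scale, and MCU, the mitochondrial calcium uniporter, by 0.62 ± 0.17 and 0.69 ± 0.11. SLC8A2, a sodium-calcium exchanger that runs on the gradient made by the sodium pump, rose by 3.22 ± 0.40 and 3.65 ± 0.27 from 0.202 ± 0.093 CPM in LG and 0.246 ± 0.054 CPM in HG. It too passed the filter through its VPA libraries alone, so that it had to differ once it was tested. ORAI3, a channel of store-operated entry, fell, with log2 fold changes of -1.14 ± 0.28 and -1.40 ± 0.14, and was the gene of the list that rose in HG against LG, by 1.05 ± 0.22.

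With glucose, 4 of the 15 genes of that list tested were called in HG against LG, beside 24.7% of all genes. Of these, 1 was higher and 3 lower, and the median of the list was -0.16. ITPR3, another release channel, fell by 0.61 ± 0.16 on the log2 scale and rose with VPA by 0.55 ± 0.16 and 0.76 ± 0.13. TMEM66, the older symbol of SARAF, which shuts off store-operated entry, fell by 0.82 ± 0.12. In HGV against LGV 7 of 17 were called, 4 higher and 3 lower, beside 40.7% of all genes, and TMEM66 fell there by 0.79 ± 0.12.

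Several calcium-binding proteins of the ER lumen were lower in high glucose. Of the 12 genes listed with calmodulin, all were in the table, and 6 were called in HG against LG, each lower, beside 24.7% of all genes, with a median of -0.32. Of those not called, CALU had a log2 fold change of -0.27 ± 0.12 (FDR = 0.123) and RCN1 of 0.17 ± 0.13 (FDR = 0.373). CALR, the main calcium-storing protein of the ER, fell by 2.25 ± 0.16 on the log2 scale. The log2 fold changes of the ER chaperones HSPA5, PDIA4 and HSP90B1 were -2.06 ± 0.14, -1.61 ± 0.13 and -1.56 ± 0.14. In HGV against LGV 6 were called, each lower, beside 40.7% of all genes, and CALR fell by 1.99 ± 0.17. With VPA 2 were higher and 2 lower in low glucose, and 3 higher and 3 lower in high glucose, beside 41.6% and 46.1% of all genes called. RCN1, a reticulocalbin of the ER, fell, with log2 fold changes of -1.32 ± 0.13 and -1.81 ± 0.13.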

How the data were processed

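The authors sequenced poly(A) RNA of 12 HepG2 libraries made with a directional kit, and their processing notes name bcl2fastq 2.17.1.14, STAR, featureCounts and GRCh37. The deposited values are raw counts of reads per gene in a table of 16389 genes, from which the authors had left out genes averaging under 10 reads. Groups came from the labels, and 3 libraries stood in each. Counts were tested with edgeR 4.0.16 (R 4.3.3): TMM factors, a filter on a mean of 10 reads or more per gene over the 6 libraries compared (12 for the interaction), quasi-likelihood F test, Benjamini-Hochberg over all genes tested, FDR of 0.05 or less. DESeq2 1.42.0, other scalings, filters and fits, and leaving out each library were tried. Levels are CPM scaled with TMM factors of the 12 libraries, with 3 reads worth 0.0713 to 0.112 CPM. Lengths are unions of exons in GENCODE 44 on GRCh37, which placed 15975 genes by identifier. The paper counted reads on an Ensembl annotation of GRCh37, so counts and lengths rest on different annotations. Genes named are the 8 members, up to 6 genes of each list by smallest p among those called in HG against LG or in both VPA comparisons, and the 3 genes most correlated with each member. Some listed genes are not reported here. Genes named outside these rules were chosen after their values were seen. The members and lists were chosen with earlier results of these data known. The scripts were tested on simulated counts. Intervals and floors cover counting error only.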

Additional observations from a re-analysis of the deposited data

Results flagged for a closer look

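ATP1B2 moved with glucose in opposite directions without and with VPA. All 3 HG libraries lay below all 3 LG libraries (0.168 to 0.568 against 0.587 to 1.35 CPM), and all 3 HGV libraries above all 3 LGV libraries (14.0 to 17.0 against 8.46 to 10.0 CPM). The gap between HG and LG was lost with library size only, where HG replicate 2 (0.572 CPM) stood above LG replicate 3 (0.564 CPM). The difference between both log2 fold changes, fitted over 12 libraries, was 2.06 ± 0.41 (SE), with an FDR of 0.0627 by edgeR's quasi-likelihood F test. It came from 39 reads in HG and 103 in LG, against 1667 in HGV and 930 in LGV. With each library left out in turn its FDR ran from 0.00876 to 0.190, and it passed the threshold without LG replicate 2 (0.035) or LG replicate 3. The fall in HG against LG (FDR = 0.0254) was not called in 4 of its 6 such fits, with FDRs of up to 0.155, and the rise in HGV against LGV was called in all 6.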

How the results depend on the processing

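Of the members' log2 fold changes, 251 kept their direction and side of the threshold when a library was left out, 8 passed it and 16 no longer did, and 7 that were never called changed sign. These were ATP2C1 in HG against LG (-0.083 to 0.098, negative without HG replicate 1), ATP1B1 in LGV against LG (-0.032 to 0.16, negative without LG replicate 1 or LGV replicate 2), and the interactions of ATP1B1 (-0.025 to 0.18), ATP1B3 (-0.080 to 0.31) and ATP2A3 (-1.38 to 0.070), changed without LG replicate 2, and of ATP2B1 (-0.028 to 0.29), changed without HGV replicate 3. Members called then ranged from 3 to 6 in HG against LG, 3 to 4 in LGV against LG, 2 to 5 in HGV against HG, 5 to 6 in HGV against LGV and 0 to 1 in the interaction, and genes called from 1933 to 5338, 4942 to 6986, 6083 to 7793, 4516 to 7228 and 1 to 217. At an FDR of 0.01, 3 members and 1852 genes were called in HG against LG, 4263 genes in HGV against LGV and 1 gene in the interaction. With library size only, 5 members were called in HGV against HG and 1 gene in the interaction. In the interaction the likelihood ratio test called 1 member and 202 genes, and DESeq2 1 member and 162 genes. Replicate numbers were not taken as pairs, since the study named no pairing. Deviations of same-numbered libraries from their group means correlated from -0.20 to 0.29, beside -0.39 to 0.41 for differently numbered ones. This cannot settle whether they were paired, as deviations from a mean of 3 libraries depend on each other. With a replicate block, 6, 4, 4, 7 and 1 members and 3351, 6971, 8229, 7308 and 13 genes were called in the 5 comparisons in the same order, and the interaction of ATP1B2 had an FDR of 0.039. With the longest transcript as length, shares in LG, HG, LGV and HGV were 37.1, 43.1, 35.1 and 39.4% for ATP1B1, 62.7, 56.8, 63.3 and 56.5% for ATP1B3 and 95.4, 88.4, 93.7 and 81.8% for ATP2A2. They were 1.61 and 4.16% for ATP1B2 and 72.0 and 62.3% for ATP2B1 in LGV and HGV, 30.3 and 23.0% for ATP2B4 in HG and LGV, and 98.2% for ATP2C1 in HGV. By library size only, mean CPM was 295 for ATP1B1 and 3.70 for ATP2A3 in HGV, and 56.4, 86.5 and 75.8 for ATP2C1 in LG, LGV and HGV. The cause of these shifts was not tested beyond the change of setting itself. Depth limited ATP1B2 and ATP2A3 without VPA, at 0 to 44 reads a library.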
